A study of Mus musculus with 15 samples.

Results

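Reln, Moxd1 and Diras2 are genes best known from the nervous system, and their array values stood far apart between 2 sets of mouse kidneys. Each was found as the entry of the value table annotated with its symbol and no other, and each had 1 such entry, so 3 of the 22180 genes with a single symbol are described. They were picked from the Cre comparisons themselves, so those differences are given as values with no test. All 15 mice carried PRCC-TFE3 as a Rosa26-LSL knock-in, which joins part of PRCC, a nuclear protein, to the transcription factor TFE3 and occurs in human kidney cancer. A stop cassette keeps it silent until Cre removes it. In the Cre+ mice the KSP-Cre transgene expresses Cre from the promoter of Cdh16, a cadherin made by kidney tubule cells. The groups were PRCC-TFE3;KSP-Cre- mice (Cre-) at 4 months (n = 4) and 7 months (n = 3), and PRCC-TFE3;KSP-Cre+ mice (Cre+) at 4 months (n = 4) and 7 months (n = 4). Each array held RNA from kidney tissue of 1 mouse. No group with KSP-Cre and without the knock-in was analysed here, so the fusion and the Cre transgene cannot be told apart. Strain and sex were not given in the sources used here.

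Reln encodes reelin, a large secreted glycoprotein of the extracellular matrix that guides the layering of neurons in the developing cortex, where Cajal-Retzius cells make it. Reelin binds the lipoprotein receptors Vldlr and Lrp8 (ApoER2), Src-family kinases such as Fyn then phosphorylate the adaptor Dab1, and secreted proteases cut reelin into shorter fragments. Moxd1 encodes a relative of dopamine beta-hydroxylase (Dbh), the copper enzyme that turns dopamine into noradrenaline. Diras2 encodes a small GTPase of the Ras family found mainly in brain, with Diras1 as its closest relative. Outside the brain reelin is made by lymphatic vessels and by stellate cells of the liver.

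The promoter windows of the 3 genes are shown because all 3 were higher in Cre+ kidneys, by which they were chosen. TFE3 also belongs to the MiT family, which binds E-box sequences. Each window runs from 250 bases before to 50 bases after the annotated start, on the gene's own strand, from RefSeq on GRCm38.p6. Reln lies on chromosome 5 (gene from 21884454 to 22344705), Moxd1 on chromosome 10 (24223517 to 24302783) and Diras2 on chromosome 13 (52504375 to 52531354). The windows are chr5:22344656-22344955 on the minus strand for Reln, chr10:24223267-24223566 on the plus strand for Moxd1 and chr13:52530787-52531086 on the minus strand for Diras2. Those of Reln and Moxd1 span the outer end of the gene. The Diras2 window lies wholly inside the gene, at a start within it, and the outer end of Diras2 was not searched. Capitals mark matches to the motifs searched.
Reln: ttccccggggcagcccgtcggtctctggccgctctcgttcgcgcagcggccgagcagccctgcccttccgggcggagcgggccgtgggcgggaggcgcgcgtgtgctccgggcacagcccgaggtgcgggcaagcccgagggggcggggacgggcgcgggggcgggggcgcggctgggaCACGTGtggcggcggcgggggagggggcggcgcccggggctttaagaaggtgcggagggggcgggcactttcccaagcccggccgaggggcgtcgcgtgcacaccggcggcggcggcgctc
Moxd1: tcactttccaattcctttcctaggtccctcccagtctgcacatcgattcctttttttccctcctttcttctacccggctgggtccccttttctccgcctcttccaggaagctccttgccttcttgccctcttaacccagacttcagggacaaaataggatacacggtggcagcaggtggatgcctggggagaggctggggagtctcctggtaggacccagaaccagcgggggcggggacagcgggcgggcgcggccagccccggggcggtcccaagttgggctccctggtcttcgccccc
Diras2: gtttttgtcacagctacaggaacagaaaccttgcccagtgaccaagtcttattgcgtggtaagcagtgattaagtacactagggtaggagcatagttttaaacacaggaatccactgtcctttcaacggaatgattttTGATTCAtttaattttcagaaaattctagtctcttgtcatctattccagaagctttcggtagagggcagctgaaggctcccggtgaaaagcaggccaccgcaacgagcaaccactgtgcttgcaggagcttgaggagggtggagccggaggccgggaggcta
Both strands were searched for the E-box CACGTG, the longer TCACGTG and CLEAR element that both contain it, and the M-box TCATGTG. They were also searched for TGANTCA, a loose form of the AP-1 site in which N is any base. The Reln window held 1 E-box, 71 to 66 bases before the start, and neither longer form. The Diras2 window held 1 match to TGANTCA, 112 to 106 bases before its start, and no E-box or M-box. This match reads TGATTCA, so it is a match to the loose pattern only. None of these letters was in the Moxd1 window. Of all 32851 promoter windows of that length, 7.15% held CACGTG, 3.77% TCACGTG, 0.326% the CLEAR element, 3.77% TCATGTG and 7.81% TGANTCA. The G and C content was 80.7% in the Reln window, 61.7% in that of Moxd1 and 47.7% in that of Diras2, against a median of 52.7% over all windows.

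Values are RMA signals on the log2 scale, so a difference of 1 is a doubling. Arrays of the same group correlated at 0.983 to 0.994 across genes. The 12 proximal tubule markers averaged 9.34 to 11.1 over the arrays, among the brightest lists, as kidney tissue should show. Gpnmb, a glycoprotein of lysosomes and melanosomes and a TFE3 target, was at 4.05 to 4.69 in the Cre- arrays, 10.2 to 11.1 in Cre+ arrays at 4 months and 12 to 12.4 at 7 months, so each array matched its genotype label. Tfe3 differed by 0.03 at 4 months (SE 0.09) and 0.22 at 7 months (SE 0.10) and passed at neither age, and where its probes lie relative to the fusion is not given here. Cdh16, whose promoter drives Cre, differed by -0.17 at 4 months (SE 0.12, limma adjusted p = 0.55) and fell by 0.43 at 7 months (SE 0.13, limma adjusted p = 0.026).

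Reln was low in every Cre- kidney and high in every Cre+ kidney. At 4 months its values were 4.78, 4.56, 4.60 and 5.04 in the Cre- mice and 9.82, 9.73, 9.74 and 9.92 in the Cre+ mice. At 7 months they were 4.60, 4.50 and 4.80 in the Cre- mice and 9.86, 10.05, 9.68 and 9.84 in the Cre+ mice. The groups did not overlap at either age. The lowest Cre+ value lay 4.69 above the highest Cre- value at 4 months (25.8-fold) and 4.87 above it at 7 months (29.3-fold). The difference of means was 5.06 (SE 0.12) at 4 months and 5.22 (SE 0.13) at 7 months. By size of rise Reln stood at place 5 of 22180 genes at 4 months and at place 4 at 7 months.

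Moxd1, the Dbh relative, was near background in Cre- kidneys, and its 4 Cre+ values at 7 months spread more widely than those at 4 months. At 4 months it was at 3.23, 3.72, 4.10 and 3.20 in Cre- mice and at 9.17, 9.13, 9.37 and 9.34 in Cre+ mice. At 7 months it was at 3.54, 3.19 and 3.57 in Cre- mice and at 8.51, 9.27, 8.49 and 9.21 in Cre+ mice. Again no Cre+ array came near a Cre- array: the gap was 5.03 (32.7-fold) at 4 months and 4.92 (30.4-fold) at 7 months. The difference of means was 5.69 (SE 0.21) and then 5.44 (SE 0.22), at places 2 and 3 of all genes.

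Diras2, the small GTPase, was the member that rose further between the ages. Its Cre- values were 3.69, 4.30, 4.64 and 4.21 at 4 months and 4.60, 4.05 and 3.35 at 7 months. Its Cre+ values were 9.64, 9.63, 9.996 and 9.999 at 4 months and 10.46, 10.72, 10.84 and 10.67 at 7 months. Every 7-month Cre+ array exceeded every 4-month Cre+ array. The gap between the lowest Cre+ and the highest Cre- array was 4.998 (31.9-fold) at 4 months and 5.86 (58-fold) at 7 months. The difference of means was 5.61 (SE 0.22) at 4 months and 6.67 (SE 0.24) at 7 months, at places 3 and 2 of all genes.

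**Figure D1:**
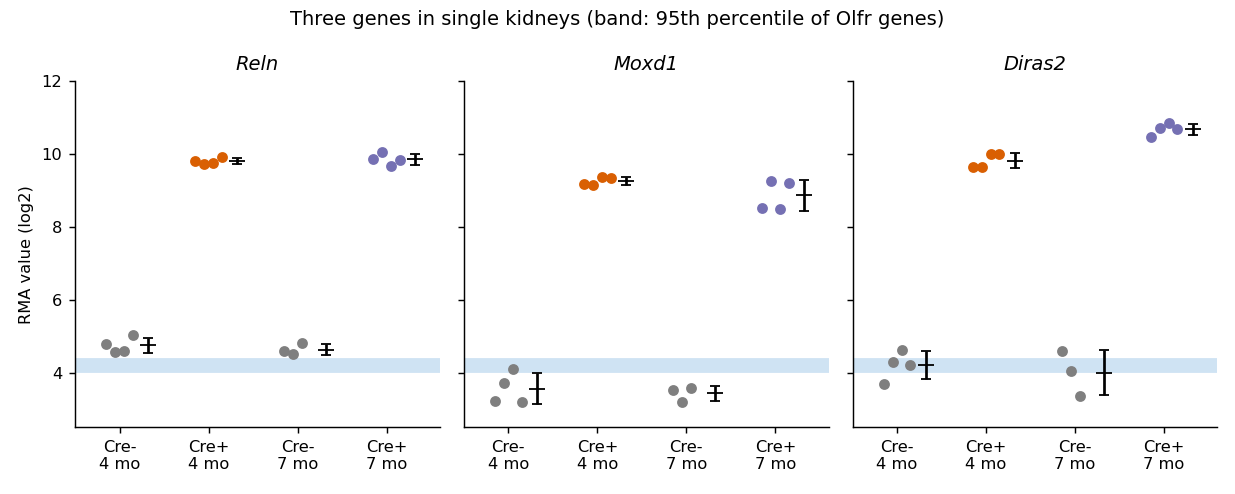
RMA values (log2) of Reln, Moxd1 and Diras2 in single kidneys. Each point is 1 array, the bar beside it is the group mean ± SD (n = 4, 4, 3 and 4), and the blue band spans the 95th percentile of olfactory receptor genes over the arrays (4.02 to 4.37); Cre+ points lie between 8.49 and 10.84 and Cre- points between 3.19 and 5.04.

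The table holds no detection calls, so the 1105 olfactory receptor (Olfr) genes, most of which are silent in kidney, served as a reference for background. Their median was 2.36 to 2.74 and their 95th percentile 4.02 to 4.37 over the arrays, and their highest single value was 6.62. In every Cre+ array all 3 members exceeded all Olfr genes of that array. In the Cre- arrays the members differed in their place. Reln was above the 95th percentile in 7 of 7 Cre- arrays, with 96.3% to 98.3% of Olfr genes below it. Moxd1 was above it in 0 of 7, with 80.4% to 94.5% below. Diras2 was above it in 4 of 7, with 80.6% to 97.2% below. The label of near-background genes is thus met by Moxd1, while Reln lay above most Olfr genes and Diras2 varied. Probe sets differ in their own background, so these places are only a guide, and a fold against a Cre- level near background may be a lower bound.

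The spread among arrays differed between members and groups. In Cre+ kidneys at 4 months the SD was 0.09 for Reln, 0.12 for Moxd1 and 0.21 for Diras2, where genes with a mean within 0.5 of the member's had median SDs of 0.13, 0.14 and 0.13. In Cre+ kidneys at 7 months it was 0.15, 0.42 and 0.16, beside median SDs of 0.13, 0.12 and 0.11. The 7-month SD of Moxd1 was larger than that of 97.7% of the 1086 genes of similar level. In Cre- kidneys the SD of Diras2 was 0.39 at 4 months and 0.63 at 7 months, above 96.0% and 99.0% of genes of similar level. In Cre- kidneys at 4 months Moxd1 had an SD of 0.43, above 98.2% of such genes. Reln kept an SD of at most 0.22 in all 4 groups.

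The members were chosen on the Cre differences and not on age, and change between 4 and 7 months was tested. The same arrays served both and earlier results were known, so these tests are not independent of that choice. Diras2 rose by 0.86 in Cre+ kidneys (SE 0.22, limma adjusted p = 0.020), or 1.81-fold, with all 4 older arrays above all 4 younger ones. In that comparison 4.12% of all genes were called higher and 6.71% lower, and the share separated as fully is not given here. Moxd1 was at -0.38 (SE 0.21, adjusted p = 0.25) and Reln at 0.05 (SE 0.12, adjusted p = 0.81), and neither passed. The adjusted p of Diras2 was 0.052 without Cre+ replicate 1 at 4 months, 0.055 without replicate 2 there and 0.057 without Cre+ replicate 3 at 7 months. Without moderation of the variances it was 0.064. In the same comparison 16 of 18 macrophage and monocyte markers were called higher and all 12 proximal tubule markers lower, and the part of these in the rise of Diras2 was not tested. In Cre- kidneys the age differences were -0.11 (SE 0.13) for Reln, -0.13 (SE 0.22) for Moxd1 and -0.21 (SE 0.24) for Diras2, each with a limma adjusted p of 1. There 0.00451% of genes were called higher and 0% lower, while 296 genes were higher and 304 lower at an unadjusted p below 0.05.

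The difference of the Cre effect between ages was 1.07 for Diras2 (SE 0.33, limma adjusted p = 0.11), so a larger effect at 7 months was not established. It passed without Cre- replicate 1 at 7 months (1.37, limma adjusted p = 0.027). For Reln it was 0.17 (SE 0.17, adjusted p = 0.68) and for Moxd1 -0.25 (SE 0.30, adjusted p = 0.73). In this comparison 0.96% of genes were called higher and 1.18% lower.

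The differences between members within each Cre+ array were then set side by side between ages. This comparison was chosen after the members had been seen to go different ways with age, so its p-values restate that observation and are no independent evidence. A shift common to an array cancels in them. Only their change is read, since probe sets of different genes are not on 1 scale. Diras2 minus Moxd1 was 0.46 to 0.66 in the 4 arrays at 4 months and 1.46 to 2.35 at 7 months. This change of 1.24 gave p = 0.029 in a two-sided exact permutation test, the smallest that 4 against 4 arrays allow, and 0.043 adjusted over the 3 pairs. Diras2 minus Reln changed by 0.80, from between -0.18 and 0.25 to between 0.60 and 1.17 (exact permutation p = 0.029, adjusted 0.043). Reln minus Moxd1 changed by 0.44, from between 0.38 and 0.64 to between 0.63 and 1.35, with ranges that overlap (exact permutation p = 0.057, adjusted 0.057).

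**Figure D2:**
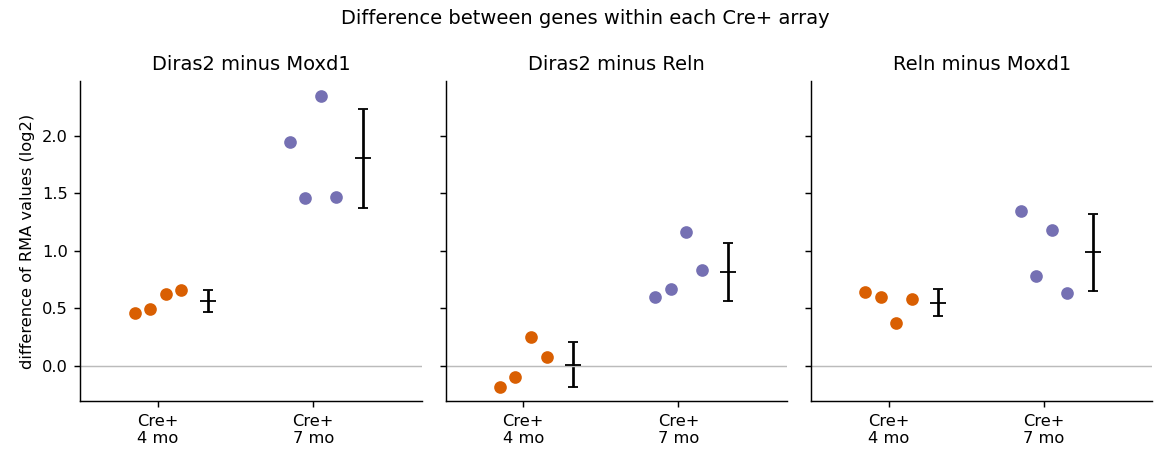
Difference between the log2 values of 2 genes within each Cre+ array, at 4 and 7 months. Points are arrays and bars the mean ± SD (n = 4 each); Diras2 minus Moxd1 lies between 0.46 and 0.66 at 4 months and between 1.46 and 2.35 at 7 months, and only the panel of Reln minus Moxd1 has overlapping ages.

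Whether a Cre+ kidney high in 1 member was also high in another was examined over the 8 Cre+ arrays. Over all 15 arrays the values form separate clusters by Cre, so no pooled correlation is given. Pearson's r was 0.36 for Reln and Moxd1 (Spearman's rho 0.45), 0.22 for Reln and Diras2 (rho 0.21) and -0.46 for Moxd1 and Diras2 (rho -0.21). The exact permutation p-values of r were 0.35, 0.61 and 0.30, those of rho 0.27, 0.62 and 0.62, and the 3 adjusted values of r lay between 0.53 and 0.61 and those of rho at 0.62. Without the 2 arrays farthest from the median of the gene named before, r was -0.20, 0.43 and 0.24. As deviations from each age's mean, r was 0.63, -0.01 and 0.30, and none passed (exact permutation p adjusted over the pairs, 0.27 to 0.98). At 8 arrays no relation between members was detectable.

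The genes most like each member were ranked by the root mean square difference of their log2 profiles over the 15 arrays, each gene centred on its own mean. The nearest to Reln were 2010320O07Rik (0.30), Moxd1 (0.42), the growth factor Tgfb2 (0.42), the ATP-gated channel P2rx7 (0.46) and the lysosomal glycoprotein Cd68 (0.64). For Moxd1 they were Reln (0.42), 2010320O07Rik (0.45), Diras2 (0.63), Tgfb2 (0.65) and P2rx7 (0.72). For Diras2 they were Moxd1 (0.63), Gpnmb (0.63), Reln (0.69), 2010320O07Rik (0.72) and Cd68 (0.93). Over these arrays the measure is set mostly by the Cre difference, by which the members were chosen, so their places in each other's sets are a description. Diras2 stood at place 7 for Reln. By Pearson's r the 5 nearest genes of Diras2 held neither Reln nor Moxd1, and those of Moxd1 did not hold Diras2. The entry 2010320O07Rik, the only other gene in all 3 sets, averaged 3.47 without and 8.998 with Cre at 4 months, then 3.71 and 8.79 at 7 months. Gpnmb and Cd68 had higher Cre+ means at 7 than at 4 months, by 1.39 and 1.18, where that of Diras2 was higher by 0.86.

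Reelin's receptors and adaptors did not share the size of its change, by which Reln was chosen, and its receptor Vldlr went the other way. Vldlr, a lipoprotein receptor, was at 8.23, 7.95, 8.06 and 8.15 in Cre- mice and at 7.59, 7.52, 7.43 and 7.75 in Cre+ mice at 4 months. At 7 months it was at 7.98, 8.08 and 8.10 in Cre- mice and at 7.07, 6.95, 7.07 and 7.28 in Cre+ mice. No Cre+ array reached a Cre- array at either age, and the share of all genes so separated is not given here. By limma Vldlr fell by 0.53 in the younger mice (SE 0.10, adjusted p = 0.0060) and by 0.96 in the older (SE 0.11, adjusted p = 6.95e-06). Lrp8, the second receptor, overlapped between genotypes, with 4.47 to 5.57 in Cre- and 4.78 to 5.61 in Cre+ mice at 4 months, and 4.87 to 5.18 and 5.005 to 5.69 at 7 months. Its differences were 0.15 (SE 0.22, adjusted p = 0.80) and 0.38 (SE 0.24, adjusted p = 0.30).

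Dab1, the adaptor that carries the reelin signal, rose at both ages from a low level. It was at 4.62, 4.56, 4.57 and 4.78 in Cre- mice and at 5.21, 5.30, 5.50 and 5.77 in Cre+ mice at 4 months. At 7 months it was at 4.29, 4.62 and 4.89 in Cre- mice and at 5.41, 5.02, 5.54 and 5.34 in Cre+ mice. All Cre+ arrays lay above all Cre- arrays of their age, again without a share of all genes to set beside it. The rise was 0.81 (SE 0.15, limma adjusted p = 0.0035) and 0.72 (SE 0.16, adjusted p = 0.0027), or 1.76-fold and 1.65-fold. Dab2, an endocytic adaptor of proximal tubule cells, was at -0.29 at 4 months (SE 0.11, adjusted p = 0.17) and fell by 0.63 at 7 months (SE 0.12, adjusted p = 0.00066).

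**Figure D3:**
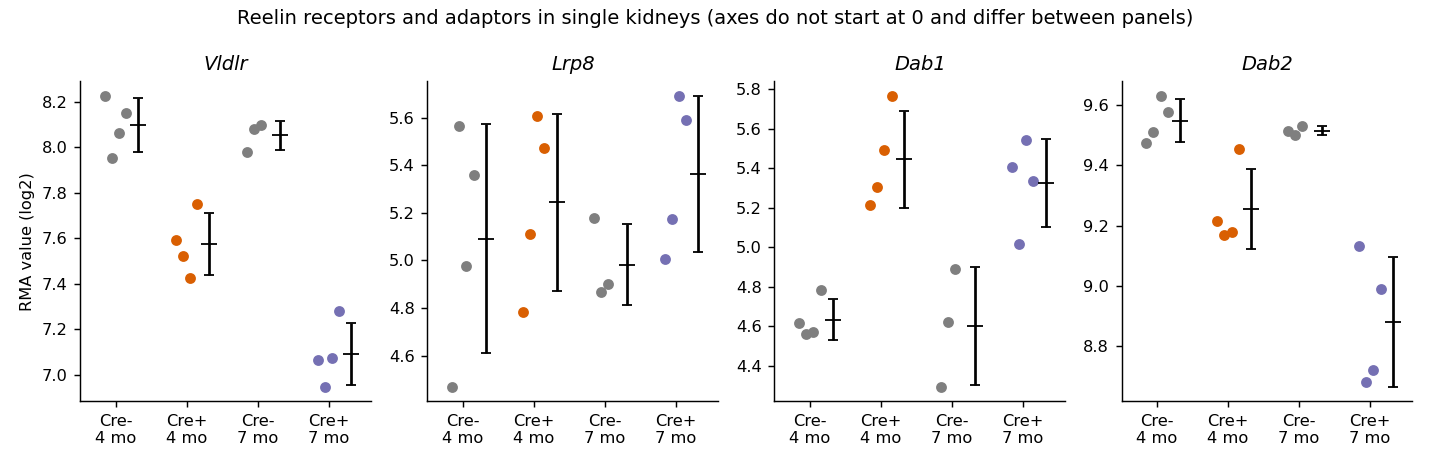
RMA values (log2) of the reelin receptors Vldlr and Lrp8 and the adaptors Dab1 and Dab2 in single kidneys, with group means ± SD beside the points (n = 4, 4, 3 and 4). The panels have their own axes, which do not start at 0; Vldlr is lower and Dab1 higher in all Cre+ arrays than in the Cre- arrays of their age, and Lrp8 overlaps.

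This list and those below were chosen with earlier results of these data known, so their shares beside those of all genes are a description. Of 36 measured genes of reelin receptors and signalling 1 rose (Dab1) and 1 fell (Vldlr) at 4 months, where 2.73% of all genes were called higher and 0.803% lower. At 7 months 5 rose and 5 fell, 13.9% each, where 11.7% of all genes were called higher and 10.8% lower, so the list's shares were near those of all genes. Its median difference was 0.02 at 4 months and 0.04 at 7 months, against 0.05 and -0.04 over all genes. With each array shifted to a common median, the share of higher calls among all called genes went from 77.3% to 49.3% at 4 months and from 52% to 39.3% at 7 months. Besides Dab1, the kinase Fyn rose by 0.56 (SE 0.13), the integrin Itgb1 by 0.46 (SE 0.11) and the receptor Notch1 by 0.42 (SE 0.11) at 7 months. Among the falls at 7 months were Cdh2, N-cadherin (-0.82, SE 0.16), and Mapt, the microtubule protein tau (-0.76, SE 0.14).

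Proteases that act on reelin or its precursors and inhibitors of proteases changed in both directions. Of 14 measured, 1 rose and 1 fell at 4 months, and 4 rose and 6 fell at 7 months, with medians of -0.04 and -0.02. These were 7.14% each at 4 months, against 2.73% and 0.803% of all genes, and 28.6% and 42.9% at 7 months, against 11.7% and 10.8%. Pcsk6, a proprotein convertase, fell at both ages by limma, with differences of -1.83 (SE 0.17, adjusted p = 2.31e-06) and -1.998 (SE 0.18, adjusted p = 5.46e-07). Timp2, an inhibitor of metalloproteases, rose by 1.26 at 4 months (SE 0.13, limma adjusted p = 1.6e-05) and by 2.35 at 7 months (SE 0.14, limma adjusted p = 8.87e-09). At 7 months Timp1 rose by 1.14 (SE 0.18), Adamts4, a metalloprotease that can cut reelin, by 0.59 (SE 0.13), and Plau, urokinase, by 0.46 (SE 0.14). Adamts4 was near background there, at 3.40 to 3.44 in Cre- and 3.86 to 4.38 in Cre+ mice. The 95th percentile of Olfr genes was 4.02 to 4.37. Its Cre+ means were alike at 4 and 7 months (3.98 and 4.01), while its Cre- means were 3.85 and 3.42. Timp3, an inhibitor of Adamts enzymes, fell by 0.75 (SE 0.09), and the brush-border meprins Mep1b and Mep1a fell by 1.96 (SE 0.24) and 0.72 (SE 0.17). The calls of Plau and Mep1a were lost under another setting or without 1 array.

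The copper monooxygenases related to Moxd1 did not share its large rise, by which Moxd1 was chosen. Dbh itself was at 3.03 to 3.42 in Cre- and 3.25 to 3.89 in Cre+ mice at 4 months, and at 3.17 to 3.33 and 3.05 to 3.34 at 7 months, below the 95th percentile of Olfr genes in every array. Its differences were 0.37 (SE 0.14, limma adjusted p = 0.17) and -0.06 (SE 0.15, adjusted p = 0.82). Moxd2, the closest relative, was likewise below that percentile throughout, with differences of 0.09 (SE 0.12) and 0.15 (SE 0.13). Pam, the enzyme that amidates peptides, was at 8.92 to 9.05 in Cre- and 8.94 to 9.19 in Cre+ mice at 4 months, with differences of 0.08 (SE 0.11) and 0.22 (SE 0.12). None of the 3 passed the test at either age, except that Pam passed at 7 months on quantile normalized values.

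Of 22 measured genes of the Dbh family, catecholamine synthesis and copper supply, 0 rose by limma at 4 months (2 at an unadjusted p below 0.05) and 1 fell, and 1 rose and 7 fell at 7 months (medians 0.04 and -0.12). At 4 months the fall was 4.55% of the list against 0.803% of all genes. At 7 months the rise was 4.55% and the falls 31.8%, against 11.7% and 10.8%. By limma Pcbd1, an enzyme that recycles the cofactor tetrahydrobiopterin, fell by 0.43 in younger mice (SE 0.11, adjusted p = 0.029) and by 0.98 in older ones (SE 0.11, adjusted p = 8.52e-06), and its 4-month call was lost under 2 other settings and without any 1 of 5 arrays. At 7 months Spr, the last enzyme of its synthesis, fell by 0.97 (SE 0.14), the amine transporter Slc18a1 by 1.34 (SE 0.18) and the copper importer Slc31a1 by 0.66 (SE 0.12). Atp7a, a copper pump that loads secreted enzymes, was the 1 that rose (0.53, SE 0.16), and it lost its call without moderation or without any 1 of 4 arrays. Beside these falls, all 12 proximal tubule markers were called lower at 7 months, and the part of that in the result was not tested.

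Diras1, the closest relative of Diras2, did not share the rise by which Diras2 was chosen. It was at 5.22, 5.44, 5.25 and 5.26 in Cre- mice and at 5.16, 5.36, 5.49 and 5.14 in Cre+ mice at 4 months. At 7 months it was at 5.20, 4.82 and 5.34 in Cre- mice and at 5.05, 4.95, 5.11 and 5.20 in Cre+ mice. The genotypes overlapped at both ages, with differences of -0.01 (SE 0.12, limma adjusted p = 0.99) and -0.04 (SE 0.13, adjusted p = 0.87). Rap1gds1, an exchange factor and chaperone that binds the Diras proteins, differed by 0.07 in younger mice (SE 0.09, limma adjusted p = 0.79) and by 0.11 in older ones (SE 0.10, adjusted p = 0.47). Of 28 measured Ras-like GTPases and partners 0 rose and 0 fell at 4 months by limma, with 0 and 1 at an unadjusted p below 0.05 and none called without moderation. At 7 months 5 rose and 1 fell, 17.9% and 3.57% against 11.7% and 10.8% of all genes. The medians were 0.03 and 0.08. Rrad, a GTPase that restrains calcium channels, rose by 1.004 (SE 0.16), Rasl12 by 0.60 (SE 0.17), Nras by 0.56 (SE 0.10) and Rap2b by 0.55 (SE 0.16). Nkiras1, an inhibitor of NF-kB signalling, fell by 0.56 (SE 0.12). The call of Rasl12 was lost without any 1 of 3 arrays, and that of Rap2b without any 1 of 2 or with the mean of a gene's entries.

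Genes of synapses, axon guidance and neural adhesion formed the widest neural list. Of 54 measured members 4 rose and 4 fell at 4 months (7.41% each, against 2.73% and 0.803% of all genes). At 7 months 15 rose and 9 fell (27.8% and 16.7%, against 11.7% and 10.8%). The medians were 0.11 and 0.02. The 4-month count moved most with the settings: 3 were called with the compared groups alone or without moderation, and 2 to 5 without any 1 of 8 arrays. Nrcam, a neuronal adhesion molecule, rose by 0.95 at 4 months (SE 0.18, limma adjusted p = 0.0060) and by 1.60 at 7 months (SE 0.20, limma adjusted p = 1.56e-05). Lrrtm1, a synaptic adhesion protein, rose by 0.89 at 4 months (SE 0.23) and by 1.53 at 7 months (SE 0.24). Ntn4, a netrin, rose by 0.55 (SE 0.12) and 0.47 (SE 0.13), and Plxna2, a semaphorin receptor, by 0.46 (SE 0.12) and 0.79 (SE 0.13). At 7 months Gabrp, a subunit of the GABA-A receptor, rose by 2.99 (SE 0.20) and Lgi2 by 1.65 (SE 0.23). The nicotinic receptor subunit Chrna4 fell by 0.50 (SE 0.13) and 1.14 (SE 0.14), the netrin receptor Unc5c by 0.47 (SE 0.12) and 0.98 (SE 0.13), and Ncam2 by 0.49 (SE 0.11) and 0.75 (SE 0.11). Ntn1 fell by 0.45 at 4 months (SE 0.12) and the guidance ligand Slit2 by 0.81 at 7 months (SE 0.22). The 4-month calls of Lrrtm1, Plxna2, Chrna4, Unc5c, Ncam2 and Ntn1 and the 7-month calls of Ntn4 and Slit2 were lost under another setting or without 1 array.

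**Figure D4:**
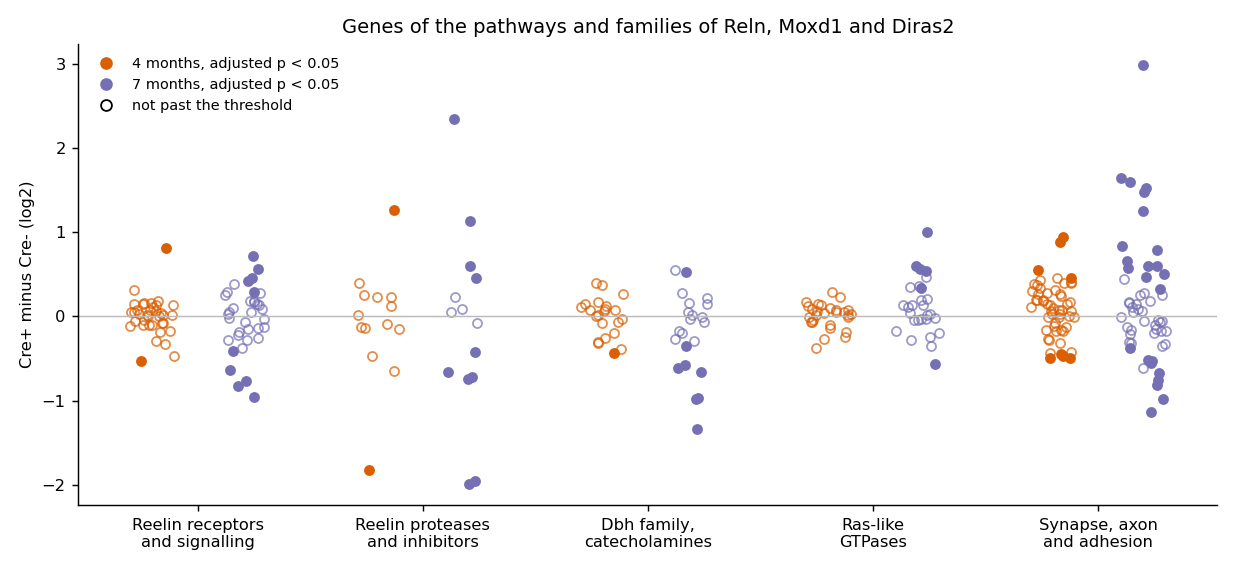
Difference between Cre+ and Cre- kidneys (log2, limma fit of 15 arrays) for each measured gene of 5 lists, at 4 months (orange) and 7 months (purple). Filled points passed an adjusted p of 0.05 and open points did not. Differences lie between -1.998 and 2.99, below the 5.06 to 6.67 of Reln, Moxd1 and Diras2. Those 3 were chosen from the largest rises of all genes, so this distance follows from that choice.

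Markers of neural and other cell types were read against the share of all genes called, 2.73% higher and 0.803% lower at 4 months and 11.7% and 10.8% at 7 months. At the 4-month share under 1 call would fall in a list of 17 genes, so a count of 0 there is near the background. In a whole-tissue sample, more cells of a type and more RNA per cell cannot be told apart. Of 17 measured neuron markers 0 rose at either age by limma (2 and 0 at an unadjusted p below 0.05, none without moderation), and 1 fell at 4 months (Syp, a synaptic vesicle protein, -0.44, SE 0.11) and 2 at 7 months (Syp, -0.52, SE 0.12, and Elavl3, -0.53, SE 0.14). Their mean per array was 3.81 to 3.96 in Cre+ and 3.84 to 3.90 in Cre- kidneys at 4 months, and 3.77 to 3.795 and 3.83 to 3.92 at 7 months. Tubb3, Snap25, Nefl, Nefm, Elavl4, Dcx, Nrgn and Ina were at or below the 95th percentile of Olfr genes in every array. The 4-month call of Syp and the call of Elavl3 were lost under another setting or without 1 array.

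Of 16 markers of Cajal-Retzius cells and interneurons, the main reelin-making cells of the brain, 0 rose and 0 fell at 4 months by limma, with 1 and 0 at an unadjusted p below 0.05. At 7 months Ndnf, a secreted neurotrophic factor, rose by 1.08 (SE 0.21, limma adjusted p = 0.0010), and Slc17a6 and Lhx6 fell by 0.56 (SE 0.15) and 0.36 (SE 0.12), both calls lost without 1 array. Trp73, Calb2, Lhx5, Nhlh2, Ebf2, Ebf3, Gad2, Slc17a6, Vip and Cnr1 were at or below the Olfr percentile in every array. Among 7 lymphatic endothelial markers 0 rose at 4 months by limma, with 0 at an unadjusted p below 0.05, and 1, Pdpn, rose at 7 months (0.42, SE 0.15), a call lost under 16 of 25 alternatives. Their mean was 5.56 to 5.83 in Cre+ and 5.63 to 5.83 in Cre- kidneys at 4 months.

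Of 13 markers of Schwann cells and neural crest, 1 rose at 4 months, Ngfr, a neurotrophin receptor, from 4.41 to 4.62 in Cre- to 7.89 to 8.18 in Cre+ kidneys (3.51, SE 0.12, limma adjusted p = 2.37e-12). At 7 months Ngfr rose by 3.603 (SE 0.13), the myelin protein Pmp22 by 1.18 (SE 0.15) and Mal by 0.40 (SE 0.13), and Erbb3 fell by 0.54 (SE 0.14). The calls of Mal and Erbb3 were lost under another setting or without 1 array. The list's shares were 7.69% higher at 4 months and 23.1% higher and 7.69% lower at 7 months. Sox10, which defines the lineage, was at or below the Olfr percentile in every array, as was Cdh19. Of 10 melanocyte markers 3 rose at both ages (30%, against 2.73% and 11.7% of all genes): Tyrp1, an enzyme of melanin synthesis (4.05, SE 0.26, and 4.76, SE 0.28), Gpr143, a melanosome receptor (2.84, SE 0.17, and 3.16, SE 0.18), and Kit (0.91, SE 0.14, and 1.51, SE 0.16). Dct, Tyr and Oca2 were at or below the Olfr percentile in every array. Of 9 adrenal medulla markers 0 rose at either age by limma (2 and 0 at an unadjusted p below 0.05) and 2 fell at 7 months (22.2% against 10.8% of all genes), and Chgb, Pnmt, Dbh and Scg3 were at or below that percentile throughout.

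Other cell types moved with genotype beside the members. Of 18 macrophage and monocyte markers 6 rose at 4 months (33.3% against 2.73% of all genes) and 18 at 7 months (100% against 11.7%). Their mean per array went from 5.48 to 6.07 in Cre- to 6.03 to 6.44 in Cre+ kidneys at 4 months and from 5.54 to 5.91 to 7.15 to 7.38 at 7 months. Of 14 pericyte and fibroblast markers 3 rose at 4 months (21.4% against 2.73%), and 4 rose and 1 fell at 7 months (28.6% and 7.14% against 11.7% and 10.8%). Col1a1 (1.32 and 2.43), Col1a2 (0.73 and 1.57) and Dcn (0.78 and 1.05) rose at both ages. Acta2 (-0.03 and 0.02), Des (0.14 and -0.23) and Cspg4 (-0.24 and 0.27) passed at neither, so the list did not move as a whole. Of 12 proximal tubule markers 3 fell at 4 months (25% against 0.803%) and 12 at 7 months (100% against 10.8%). The part of these markers in the values of Reln, Moxd1 and Diras2 was not tested.

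**Figure D5:**
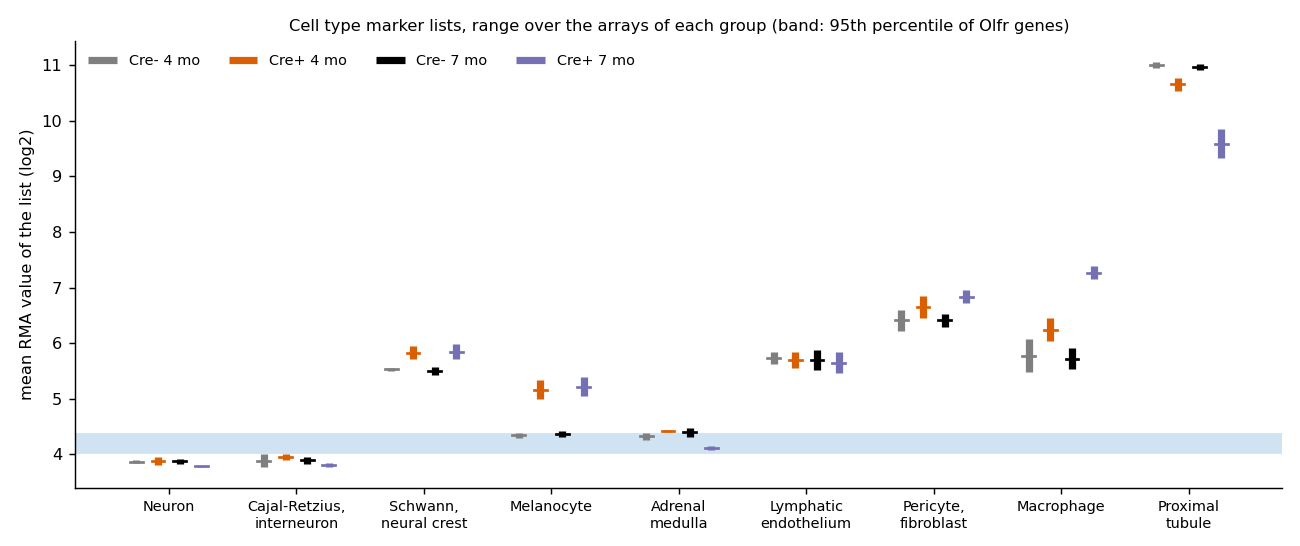
Mean RMA value (log2) of cell type marker lists, drawn as the range over the arrays of each group with a tick at its middle (n = 4 in each, 3 for Cre- at 7 months), with the blue band at the 95th percentile of olfactory receptor genes (4.02 to 4.37). Neuron and Cajal-Retzius lists stay below the band in all groups, while macrophage markers reach 7.15 to 7.38 in Cre+ kidneys at 7 months and proximal tubule markers fall to between 9.34 and 9.85.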

How the data were processed

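Total RNA from kidneys was hybridised to Affymetrix Mouse Gene 2.0 ST arrays. The deposited values are log2 signals made by the authors with RMA in Partek 6.6, per the series design text and the submitters' processing notes; the log2 scale was read from the values (1.04 to 13.12). RMA includes background correction and normalization between arrays, and it compresses differences near background. Array medians were 4.40 to 4.55, and precision is limited by how many arrays there are.

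Of 41345 table entries, 23521 had 1 gene symbol in the platform annotation, 1814 several and 16010 none; symbols were updated by Entrez identifier (23328 matched RefSeq of GRCm38.p6). The brightest entry per gene gave 22180 genes. The 4 group means were fitted to 15 arrays with limma 3.58.1 in R 4.3.3, two-sided, with Benjamini-Hochberg over all genes, threshold 0.05; each array is 1 mouse by the labels. limma replaced the submitters' analysis of variance because groups are small, and was tested on simulated data. Exact permutation tests used scipy 1.17.1 under Python 3.11.15. Members and lists were chosen with earlier results of these data known. Named genes were the members, set partners whatever their values (Lrp8, Vldlr, Dab1, Dbh, Moxd2, Pam, Diras1, Rap1gds1, Tfe3, Prcc, Cdh16, Gpnmb), up to 4 called genes per pathway list and direction, up to 3 per cell type list with its first 3, and the 5 nearest genes. List symbols without an entry of 1 symbol were left out. The planned comparison of protein sequences was not run, as no protein table was used here. Alternatives were quantile normalization, median centring, a filter on dim genes (above 5 in at least 3 arrays), other variance models, weights per array, replicate number as block, a Y-linked covariate, averaging the entries of a gene, fits of the compared groups, and each array left out.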

Additional observations from a re-analysis of the deposited data

Results flagged for a closer look

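The Cre effect differed between 7 and 4 months, by limma's test of the difference, for 6 of the genes named above. Gpnmb gained 1.45 (SE 0.25, limma adjusted p = 0.0069) and Cd68 gained 1.27. Timp2 gained 1.08 (SE 0.20, limma adjusted p = 0.0089) and Gabrp 2.65 (SE 0.27, limma adjusted p = 0.00046). Mep1b lost 1.31 (the difference was -1.31, SE 0.32, limma adjusted p = 0.045) and Timp3 lost 0.60 (-0.60, SE 0.13, limma adjusted p = 0.020). Reln, Moxd1 and Diras2 did not pass this test.

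In groups of 4 arrays, the gap between the extreme array and its neighbour was compared with the whole range by Dixon's criterion, over 201 gene and group combinations, and chance flags about 1 in 20. The gap took 0.839 of the range for Dab2, 0.865 for Timp1, 0.843 for Pcbd1 and 0.830 for Rap1gds1 in Cre+ kidneys at 4 months. It took 0.883 for Adamts4 and 0.892 for Ncam2 in Cre+ kidneys at 7 months, and 0.850 for Atp7a in Cre- kidneys at 4 months. No group of Reln, Moxd1 or Diras2 had such an array.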

How the results depend on the processing

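No result changed direction past the threshold. Without 1 array the Cre differences at 4 and 7 months were 4.99 to 5.15 and 5.16 to 5.31 for Reln, 5.57 to 5.87 and 5.31 to 5.56 for Moxd1, and 5.43 to 5.75 and 6.35 to 6.97 for Diras2. The age rise of Diras2 in Cre+ kidneys was 0.86 in the plain linear model (limma fit without moderation, adjusted p = 0.064) and 0.80 to 0.93 without 1 array (limma adjusted p = 0.0062 to 0.057). Its difference of Cre effects was 0.74 to 1.37 without 1 array. The labels do not say whether the same numbers pair the mice. Deviations of same-numbered arrays from different groups correlated at -0.47 to 0.30 (median 0.17, 21 pairs). For arrays of other numbers they correlated at -0.47 to 0.55 (median -0.09, 63 pairs), so pairing was not settled. With the replicate block the Diras2 age rise stayed at 0.86 (limma adjusted p = 0.037), and the block left all calls of the members on their side of the threshold. Among the partner genes the block ended the 4-month calls of Unc5c and Ntn1 and the 7-month calls of Lhx6, Mal and Pdpn. The change of Reln minus Moxd1 was 0.52 on quantile normalized values, past the threshold there (exact permutation, adjusted p = 0.029). That comparison was chosen after the values were seen, so its p-value is no independent evidence.

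At 4 months the calls in the protease list were 5 with the Y-linked covariate against 2, and 2 to 3 without 1 array. In the Dbh list they were 0 with quantile normalization or with the compared groups alone, 2 with array weights, and 0 to 1 without 1 array, against 1. In the synapse list they were 3 in the plain linear model or with the compared groups alone, and 2 to 8 without 1 array, against 8. Over all genes they ranged from 469 to 1101 without 1 array, against 606 higher and 178 lower. With Pearson's r in place of the root mean square difference, 3 of the 5 nearest genes were shared for Reln, 3 for Moxd1 and 1 for Diras2. Vomeronasal receptor genes as background gave medians over Cre- arrays of 96.9% for Reln, 87.5% for Moxd1 and 94.8% for Diras2, within the ranges from Olfr genes. The cause of these shifts was not tested.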

Other observations

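The labels give no sex, but the mean of 3 Y-linked genes was 6.92 to 7.80 in 8 arrays and 2.64 to 2.98 in 7. The reelin receptor Lrp8 was lower in the first kind across genotypes and ages, with ranges that almost touched. Its values were 4.47 to 5.173 where the Y-linked mean was high (n = 8) and 5.178 to 5.69 where it was low (n = 7). This was noticed in the values and not tested, and the share of all genes so separated is not given here. Among the Cre+ arrays the members overlapped between the 2 kinds, with Reln at 9.73 to 10.05 and 9.68 to 9.92, Moxd1 at 8.51 to 9.27 and 8.49 to 9.37, and Diras2 at 9.63 to 10.72 and 9.996 to 10.84. At 4 months the lower Diras2 values in Cre+ mice, 9.64 and 9.63, belonged to mice of high Y-linked mean, and the higher ones, 9.996 and 9.999, to mice of low mean. Moxd1 was split alike in these mice (9.17 and 9.13, then 9.37 and 9.34), and Reln was not (9.82 and 9.73, then 9.74 and 9.92). In Cre+ mice at 7 months Diras2 overlapped (10.46 and 10.72 at high mean, 10.84 and 10.67 at low mean), as did Moxd1 (8.51 and 9.27, then 8.49 and 9.21). No such split was tested.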
